A study of Homo sapiens with 4 samples.

Results

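The WNT pathway genes described here are 47 human genes out of 62218 genes with a count row. They were taken by their symbols, and although the rule uses no measured value, the list was drawn up with earlier results of these data known. They comprise 13 genes for ligands and their processing, 16 for receptors and receptor turnover, 8 for secreted inhibitors and 10 for the intracellular chain from the β-catenin destruction complex to the TCF/LEF factors. All cells came from the wild-type human embryonic stem cell line H1. Primed hESCs were kept in mTeSR on Matrigel under normal oxygen. Naïve hESCs, which were derived from the primed H1 cells, were kept in FINE medium with dasatinib, AZD5438, SB590885, PD0325901, Y-27632, LIF, Activin A and bFGF under low oxygen, so that state, medium and oxygen cannot be told apart. Each state had 2 Nanopore cDNA libraries (rep1 and rep2). The labels do not say that replicates were separate cultures, and p-values therefore measure only the spread between these libraries of 1 cell line.

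WNT ligands are secreted lipid-modified proteins that bind Frizzled receptors together with the co-receptors LRP5 and LRP6. In the canonical branch this binding stops a destruction complex of AXIN, APC and GSK3 from degrading β-catenin, which then acts with TCF/LEF factors in the nucleus. In human pluripotent cells WNT signalling is known for its part in the exit from the primed state towards mesendoderm and in the choice between states of pluripotency.

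Libraries held between 129276054 and 161548901 counts over transcript spans. The value of a gene was the count of its transcript with the largest mean count, and CPM is this count after the usual division by library size, here scaled by edgeR's TMM method. A count of 0 was taken to allow up to 3 counts, or 0.130 CPM in the shallower naïve library, a limit that covers counting error only. Scaling by library size alone moved the median log2 fold change (primed minus naïve) of all genes tested from 0.08 to 0.72, a shift of 0.64, so small changes depend on the scaling. All 8 naïve-state markers were lower and all 8 tested primed-state markers were higher in primed hESCs, although KLF17 lost its call with library size and a pseudogene inside its span, ENSG00000233514, held 98.5% of its naïve and 99.8% of its primed counts. Of 6 factors shared by both states SOX2, LIN28A, TDGF1 and SALL4 were higher in primed hESCs, NANOG was lower and POU5F1 was not called. Markers of other cell types moved with the states too. Of 13 trophoblast genes 12 were lower in primed hESCs, with a summed level of 2619 and 2908 CPM in naïve hESCs against 132 and 124 CPM in primed hESCs and VGLL1 at 0 in the latter. A few genes made up most of this naïve sum, CGA alone with 1548 and 1862 CPM. KRT18 had 518 and 467 CPM there, but KRT8 inside its span held 92.4% of its naïve and 91.6% of its primed counts. Of 6 amnion genes 5 were lower, as was 1 (GATA6) of 4 tested mesendoderm genes. Of 4 tested fibroblast genes 3 (COL1A1, COL1A2 and POSTN) were higher, and so were both tested neuroectoderm genes, NES and PAX6, with a summed level of that list of 1.91 and 2.35 CPM in naïve against 13.5 and 12.8 CPM in primed hESCs. The part of other cells in the WNT results was not tested, and in bulk libraries fewer cells of a type and less RNA per cell cannot be told apart.

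Of the 47 genes 36 had at least 10 counts in at least 2 libraries, and 28 of these were called at an adjusted p under 0.05 by edgeR's quasi-likelihood test, 16 higher and 12 lower in primed hESCs. The background was high, since 70% of all 27632 genes tested were called, 37.4% higher and 32.6% lower. All 16 of the higher genes and 10 of the lower ones changed by at least 1 on the log2 scale, against 28.6% and 18.5% of all genes tested. With library size in place of TMM, 20 were called higher and 8 lower, against 56.2% and 16.3% of all genes. The median log2 fold change over the 36 genes was 0.07, beside the 0.08 of all genes. Over the 47 genes the primed and naïve libraries did not overlap in CPM for 40, where the share among all genes tested was 84.4%. The 47 include 11 genes under the filter, which that share leaves out, so the 2 are not over like sets. Without a fold threshold the share of WNT genes called was thus close to that of all genes. With a change of at least 1 on the log2 scale (16 and 10 of the 36) the share was higher than that of all genes in both directions. The list was drawn up with earlier results known, and this difference was not tested. By role, the secreted inhibitors tested were all higher in primed hESCs, and the receptors and effectors were mixed. Of the 10 tested genes for ligands and their processing, PORCN included, 6 were lower under TMM and 4 with library size. The difference between roles was not tested.

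**Figure D1:**
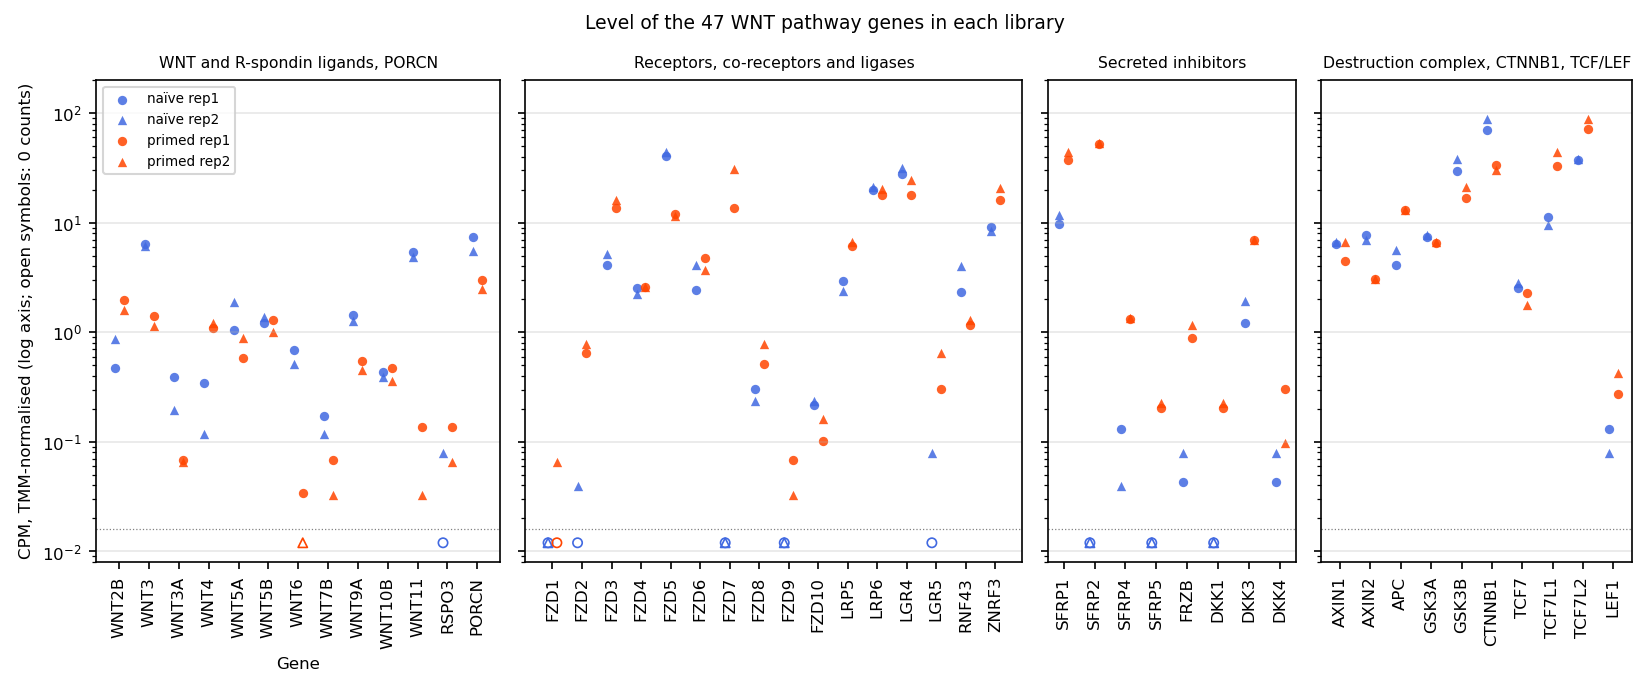
Level of each of the 47 genes in each library, in CPM on a log axis, with naïve libraries in blue and primed libraries in orange-red, circles for rep1 and triangles for rep2, and open symbols under the dotted line for a count of 0. SFRP2 and FZD7 had 0 counts in both naïve libraries but stood at 51.8 and 53.6 CPM and at 13.5 and 30.5 CPM in primed hESCs.

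**Figure D2:**
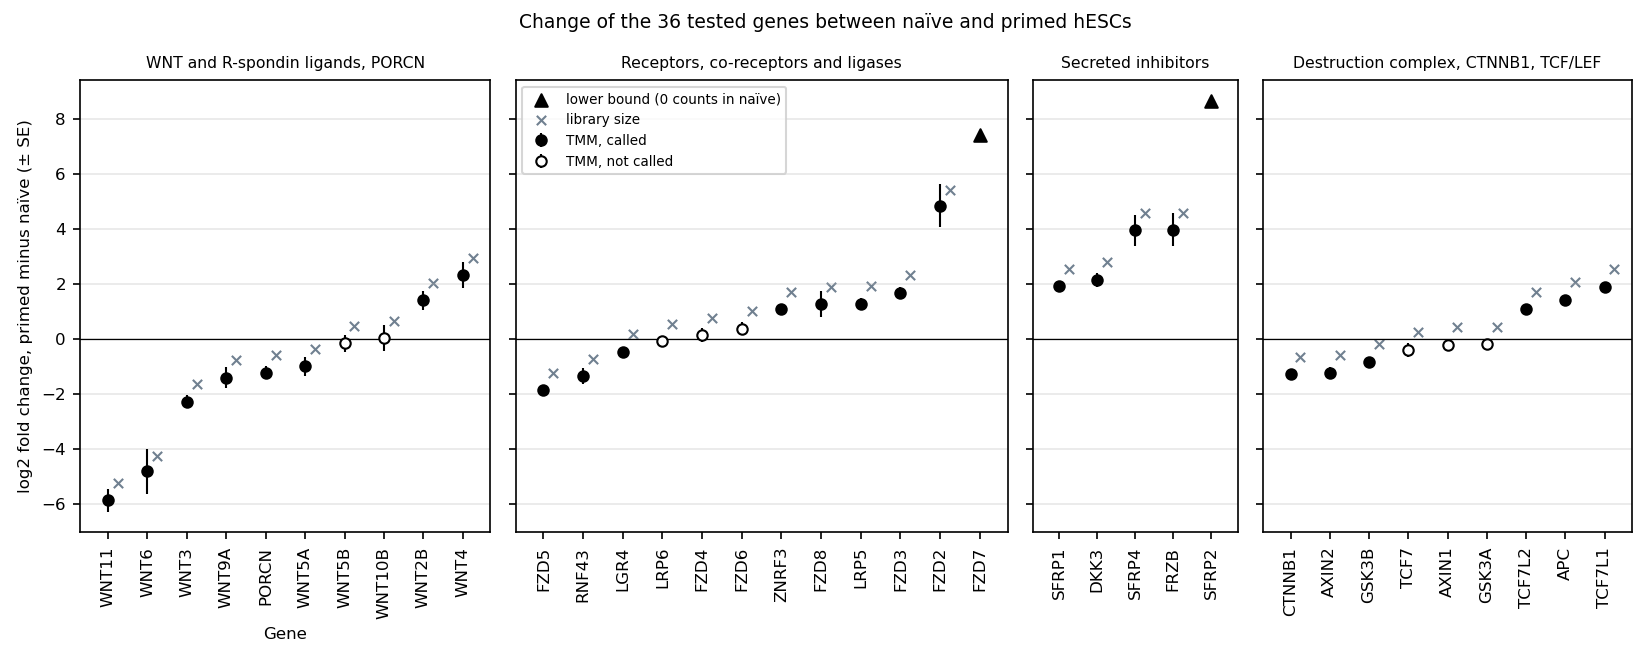
Log2 fold change, primed minus naïve, of the 36 genes tested, with bars for the standard error, filled circles for genes called and open circles for genes not called by edgeR's quasi-likelihood test, triangles for lower bounds of genes with 0 counts in naïve hESCs, and crosses for the value scaled by library size. All 5 secreted inhibitors lie above 0. Of the 10 genes for ligands and their processing, 6 are called below it, the acyltransferase gene PORCN among them. The crosses sit higher than the circles throughout.

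Among the ligand genes, WNT3, WNT6, WNT9A, WNT11, WNT5A and PORCN were lower in primed hESCs and WNT2B and WNT4 were higher, out of 10 tested. The summed level of the 13 genes was 25.3 and 23.2 CPM in naïve hESCs against 10.8 and 9.32 CPM in primed hESCs, without overlap. Their median log2 fold change was -1.12. With library size the counts were 2 higher and 4 lower. WNT3, a canonical ligand needed for the primitive streak in the mouse embryo, had 146 and 155 counts in naïve hESCs against 41 and 35 in primed hESCs. Its level fell from 6.20 ± 0.179 to 1.27 ± 0.178 CPM (SD, n = 2), a log2 fold change of -2.29 ± 0.25 (SE) with an adjusted p of 5.80e-11 in edgeR's quasi-likelihood test. The span taken for WNT3, on chromosome 17 of GRCh38 from 46762506 to 46818692, overlapped no other gene. WNT11, a ligand best known for β-catenin-independent signalling, showed the largest drop of the ligands, from 124 and 125 counts to 4 and 1. Both naïve libraries thus lay far above both primed ones, with a log2 fold change of -5.87 ± 0.42 (SE) and an adjusted p of 2.39e-16 in edgeR's quasi-likelihood test. An antisense lncRNA, ENSG00000254933, lies inside the WNT11 span and its counts came to 74.3% of those of WNT11 in naïve and 60% in primed hESCs. The alignments that missed it numbered 34 and 30 in naïve hESCs against 1 and 1 in primed hESCs, which still gave a log2 fold change of -5.13 (edgeR's quasi-likelihood adjusted p = 1.11e-09).

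PORCN, the acyltransferase that adds the lipid WNT ligands need for secretion, had 172 and 140 counts in naïve and 89 and 76 in primed hESCs. In CPM this was a decrease from 7.45 and 5.48 to 3.02 and 2.48, all naïve values being above all primed values, with a log2 fold change of -1.23 ± 0.22 (SE, adjusted p = 5.30e-06, edgeR's quasi-likelihood test). WNT6 had 16 and 13 counts in naïve hESCs against 1 and 0 in primed hESCs (log2 fold change -4.83, adjusted p = 1.37e-06, edgeR's quasi-likelihood test). WNT9A had 33 and 32 counts against 16 and 14, and its call was lost with library size (log2 fold change -0.78, adjusted p = 0.0579, edgeR's quasi-likelihood test). Both are low counts, and the CPM of neither gene passed 1.5 in any library. The call of WNT5A, a β-catenin-independent ligand with 24 and 48 counts against 17 and 27, was lost under several alternatives. Its log2 fold change went from -1.01 to -0.38 with library size, to -0.51 without naïve rep2 and to -0.74 without primed rep1, and none of these was called. DESeq2, the summed and the canonical transcripts gave no call either. WNT5A-AS1 inside its span held 45.8% and 43.2% of its counts in the 2 states.

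In the opposite direction, WNT4 went from 8 and 3 counts to 32 and 37 and WNT2B from 11 and 22 to 58 and 49, with log2 fold changes of 2.31 ± 0.47 and 1.39 ± 0.35 (SE; adjusted p = 3.01e-05 and 4.76e-04, edgeR's quasi-likelihood test). Both stayed under 2 CPM in each library, and summed transcripts gave 1.69 for WNT4. WNT5B (log2 fold change -0.17) and WNT10B (0.01) were not called. The value of WNT5B depended on its transcript, since the span taken, WNT5B-210, contains FBXL14 and its canonical transcript gave -1.70 (adjusted p = 0.00215, edgeR's quasi-likelihood test). WNT3A, WNT7B and the R-spondin RSPO3, which strengthens WNT signalling through LGR receptors, did not pass the filter. None of the 3 reached 0.4 CPM in a library, and WNT3A had the highest level among them with 0.390 and 0.196 CPM in naïve and 0.0679 and 0.0652 CPM in primed hESCs.

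Among the receptor genes FZD5 was lower and FZD7 higher in primed hESCs. Of 12 tested in all, FZD2, FZD3, FZD7, FZD8, LRP5 and ZNRF3 were higher in primed hESCs and FZD5, LGR4 and RNF43 were lower, and the median log2 fold change was 0.71. With library size 9 were higher and 2 lower. Summed over the 16 genes the level was 112 and 124 CPM in naïve hESCs against 107 and 140 CPM in primed hESCs, so the sums overlapped under TMM. With library size they did not, at 87.3 and 102 CPM against 134 and 174 CPM, with the primed libraries higher. FZD5, a receptor for canonical ligands, had 941 and 1132 counts in naïve hESCs against 352 and 349 in primed hESCs. It fell from 42.5 ± 2.53 to 11.7 ± 0.407 CPM (SD, n = 2), a log2 fold change of -1.87 ± 0.16 (SE) with an adjusted p of 3.74e-14 in edgeR's quasi-likelihood test. Both naïve libraries stood more than 3 times above both primed libraries in CPM. FZD7, a Frizzled receptor long associated with undifferentiated primed hESCs, had 0 counts in both naïve libraries but 398 and 937 in primed hESCs. The primed mean was at least 169-fold higher than the limit that a count of 0 allows, and at least 104-fold higher on the lower primed library alone (adjusted p = 4.09e-21, edgeR's quasi-likelihood test). The primed replicates themselves differed, at 13.5 and 30.5 CPM. FZD7 has 1 exon and its span, on chromosome 2 from 202033855 to 202038441, overlapped no other gene.

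FZD3, a receptor known for planar polarity and axon guidance, rose from 94 and 133 counts to 404 and 493 (log2 fold change 1.68 ± 0.19 SE, adjusted p = 1.17e-10, edgeR's quasi-likelihood test). A transcript free of other genes gave 1.09. FZD2 rose from 0 and 1 counts to 19 and 24. FZD8 had 7 and 6 counts in naïve and 15 and 24 in primed hESCs, and its call (log2 fold change 1.26) was lost without naïve rep2 (1.08), without primed rep2 (0.92), with DESeq2 and with summed transcripts. The primed libraries lay above the naïve ones for all 3 genes. FZD4 and FZD6 were not called, with log2 fold changes of 0.12 and 0.36, but both were called higher with library size (0.76 and 0.99), and FZD6 also without naïve rep2 (0.79). FZD1, FZD9 and FZD10 did not pass the filter. FZD1 and FZD9 had 0 counts in both naïve libraries, and in the primed libraries 0 and 2 counts for FZD1 and 2 and 1 for FZD9, which is within the limit of 3. FZD10 had 0.217 and 0.235 CPM in naïve and 0.102 and 0.163 CPM in primed hESCs.

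To compare levels between genes, counts of the 10 Frizzled genes were divided by exonic length and expressed as shares of their sum, which do not depend on the scaling between libraries. The divisor is a choice, since a long read can span a whole molecule and alignments were counted over spans with introns, and shares without it are given as well. FZD5 made up 80.1% and 76.7% of the Frizzled counts per kb in naïve hESCs against 22.3% and 14.4% in the primed libraries. FZD7 made up 0% of them in naïve hESCs and 38.7% and 59.1% in primed hESCs, the largest share per kb in both primed libraries. The share of FZD5 was thus 78.4% ± 2.45 (SD, n = 2) in naïve hESCs and 18.3% ± 5.62 in primed hESCs, a difference larger than the spread of the replicates. The share of FZD3 was 4.35% ± 0.363 in naïve and 11.7% ± 1.92 in primed hESCs. FZD6 had 11.2% ± 3.05 and 12.7% ± 5.56, and FZD4 4.23% ± 0.784 and 3.86% ± 1.03, and for both genes the replicates of the 2 states overlapped. Without division by length FZD5 still had the largest share in naïve hESCs, at 81.0% and 78.7%. In primed hESCs the order then turned in rep1, where FZD3, which has the longest exonic length of the 10, had 28.7% and FZD7 28.3% (404 and 398 counts). In primed rep2 FZD7 remained above FZD3, with 46.2% against 24.3%.

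**Figure D3:**
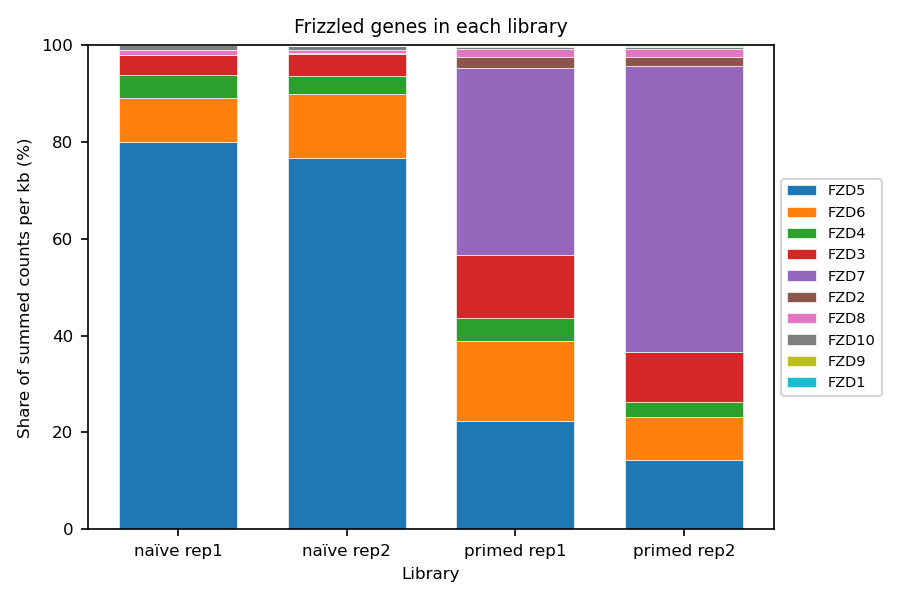
Share of each of the 10 Frizzled genes in their summed counts per kb of exonic length, in percent, for each of the 4 libraries as stacked bars. FZD5 fills 80.1% and 76.7% of the naïve bars, and FZD7, at 0% there, fills 38.7% and 59.1% of the primed bars.

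The co-receptors and the turnover genes did not move together. LRP5 had 68 and 61 counts in naïve and 181 and 204 in primed hESCs, a rise of 1.26 ± 0.22 (SE) on the log2 scale (adjusted p = 2.79e-06, edgeR's quasi-likelihood test). Its homolog LRP6 was higher per length in naïve hESCs, at 1.99 ± 0.0940 CPM per kb against 0.515 ± 0.0760 for LRP5 (SD, n = 2), and was not called (log2 fold change -0.09). With library size LRP6 was called higher in primed hESCs, at 0.54. ZNRF3 and RNF43, related E3 ligases that remove Frizzled receptors from the membrane, moved in opposite directions. ZNRF3 went from 210 and 216 counts to 472 and 634 and RNF43 from 54 and 102 to 34 and 40. In CPM neither gene's primed libraries overlapped its naïve ones, and the log2 fold changes were 1.06 ± 0.17 and -1.37 ± 0.29 (SE; adjusted p = 5.10e-07 and 5.57e-05, edgeR's quasi-likelihood test). The R-spondin receptor LGR4 had 27.6 and 31.3 CPM in naïve and 18.0 and 24.5 CPM in primed hESCs. Its call (log2 fold change -0.47) turned to 0.16 with library size and was lost without naïve rep2 (-0.38) and without primed rep1 (-0.27). LGR5, a paralog of LGR4, did not pass the filter, with 0 and 2 counts against 9 and 20.

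For FZD5, the 250 bases before the RefSeq start site (chr2:207769907-207770156, minus strand, GRCh38.p14) are given because FZD5 had the largest Frizzled share in naïve hESCs. The TCF/LEF motif searched was CTTTG followed by AA, AT, TA or TT, on both strands, and no match is in them.
FZD5: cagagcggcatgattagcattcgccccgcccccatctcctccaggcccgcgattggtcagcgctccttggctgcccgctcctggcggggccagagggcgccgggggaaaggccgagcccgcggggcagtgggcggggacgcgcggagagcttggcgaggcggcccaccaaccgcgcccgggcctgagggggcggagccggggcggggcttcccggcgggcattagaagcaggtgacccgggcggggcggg

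Secreted inhibitors, which bind WNT ligands (SFRP proteins and FRZB) or the LRP co-receptors (DKK1 and DKK4), pointed in 1 direction. All 5 tested were higher in primed hESCs under TMM, library size and DESeq2 alike, or 4 if SFRP4 is set aside, whose counts lay mostly on another gene. Of all genes tested, 37.4% were called higher under TMM and 56.2% with library size. In each of the 8 genes, 3 of which did not pass the filter, both primed libraries were above both naïve libraries. Among all genes tested, which leaves out genes under the filter, 84.4% had no overlap between the states in either direction. The summed level was 11.2 and 13.9 CPM in naïve hESCs against 99.2 and 107.5 CPM in primed hESCs, and the median log2 fold change was 3.94, which is the value of SFRP4 itself, or 3.05 over the other 4. SFRP2 had 0 counts in both naïve libraries but 1526 and 1645 in primed hESCs. Its primed level was 52.7 ± 1.28 CPM (SD, n = 2), at least 406-fold higher than the limit that a count of 0 allows, with an adjusted p of 3.83e-28 in edgeR's quasi-likelihood test. At 26.4 CPM per kb it was the most abundant inhibitor per length in primed hESCs. SFRP1 was present in both states, with 225 and 301 counts in naïve hESCs against 1107 and 1346 in primed hESCs. It rose from 10.8 ± 1.44 to 40.7 ± 4.45 CPM (SD, n = 2), a log2 fold change of 1.92 ± 0.16 (SE) with an adjusted p of 5.31e-14 in edgeR's quasi-likelihood test. In naïve hESCs SFRP1 accounted for most of the inhibitor level, while in primed hESCs SFRP1 and SFRP2 together did.

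DKK3, a divergent member of the Dickkopf family, had 28 and 49 counts in naïve hESCs against 205 and 214 in primed hESCs (log2 fold change 2.14 ± 0.24 SE, adjusted p = 2.12e-10, edgeR's quasi-likelihood test). The transcript taken, DKK3-202, runs into USP47, and the canonical transcript gave a log2 fold change of 3.65. FRZB rose from 1 and 2 counts to 26 and 36. SFRP4 had 3 and 1 counts against 39 and 41, but EPDR1 on the other strand inside its span held 91.2% of the primed counts. Outside EPDR1 the counts of SFRP4 were 1 and 1 in naïve and 4 and 3 in primed hESCs, too few for the test. SFRP5 and DKK1, the best known inhibitor of LRP5 and LRP6, each had 0 counts in both naïve libraries but 6 and 7 in primed hESCs, and neither passed the filter. Both were called higher when no filter was used, and DKK1 also with summed transcripts. Their primed means were at least 1.66-fold higher than the limit. DKK4 had 1 and 2 counts against 9 and 3.

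The 250 bases upstream of SFRP2 (chr4:153789084-153789333, minus strand) and DKK1 (chr10:52314031-52314280, plus strand), from RefSeq on GRCh38.p14, are shown because SFRP2 had the largest bound on its change and DKK1 holds 2 matches to the TCF/LEF motif, printed in capitals. The matches in DKK1 begin at -95 and -76, counted from the start site, and SFRP2 has none.
SFRP2: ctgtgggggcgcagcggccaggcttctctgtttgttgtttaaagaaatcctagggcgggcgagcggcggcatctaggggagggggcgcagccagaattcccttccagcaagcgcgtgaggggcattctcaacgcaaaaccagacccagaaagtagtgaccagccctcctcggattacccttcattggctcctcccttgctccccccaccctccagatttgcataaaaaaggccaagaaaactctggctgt
DKK1: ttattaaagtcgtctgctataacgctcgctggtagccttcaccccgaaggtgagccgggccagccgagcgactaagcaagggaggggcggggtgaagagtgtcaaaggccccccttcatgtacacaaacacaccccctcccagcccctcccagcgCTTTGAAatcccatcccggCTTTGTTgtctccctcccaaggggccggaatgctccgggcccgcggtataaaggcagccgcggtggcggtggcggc

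Of the 47 genes 32 were matched to a RefSeq promoter window, which runs from 250 bases before the start to 50 after it. A motif match was found in 2 of the 32 (6.25%), DKK1 and WNT3, the latter with a match that begins at position 20 after the start. The share was 13.8% among all 35116 windows of the same length. A match describes the letters of the window and not a bound factor. The windows of the 32 genes had a median GC content of 67.2%, compared with 58.7% for all windows.

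The intracellular genes had no common direction. APC, TCF7L1 and TCF7L2 were higher in primed hESCs, and AXIN2, CTNNB1 and GSK3B were lower, out of 9 tested, with a median log2 fold change of -0.23. With library size 4 were higher and 2 lower, and the median was 0.41. The summed level of 176 and 203 CPM in naïve and 184 and 215 CPM in primed libraries overlapped under TMM. With library size the sums were 137 and 167 CPM against 230 and 267 CPM, higher in primed hESCs without overlap. CTNNB1, which encodes β-catenin, had 1617 and 2230 counts in naïve hESCs against 988 and 932 in primed hESCs. It fell from 78.7 ± 12.2 to 32.0 ± 2.24 CPM (SD, n = 2), with a log2 fold change of -1.30 ± 0.15 (SE) and an adjusted p of 4.02e-10 in edgeR's quasi-likelihood test. AXIN2, a scaffold of the destruction complex whose transcription is a classic readout of β-catenin activity, had 177 and 176 counts in naïve and 91 and 93 in primed hESCs. Its levels of 7.67 and 6.89 CPM against 3.09 and 3.03 CPM did not overlap, and the log2 fold change was -1.25 ± 0.21 (SE, adjusted p = 1.23e-06, edgeR's quasi-likelihood test). Both genes were lower in primed hESCs with library size as well, with log2 fold changes of -0.67 and -0.61. For AXIN2 a transcript free of other genes gave -2.19. APC, the other scaffold, rose from 95 and 145 counts to 384 and 403 (log2 fold change 1.41 ± 0.19 SE, adjusted p = 1.00e-08, edgeR's quasi-likelihood test).

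GSK3B, the kinase that marks β-catenin for degradation, had 684 and 964 counts in naïve and 491 and 644 in primed hESCs. Its call at a log2 fold change of -0.84 was lost with library size (-0.21, adjusted p = 0.269, edgeR's quasi-likelihood test), and ENSG00000288662 inside its span held 41.1% and 34.9% of its counts. AXIN1 and GSK3A, with log2 fold changes of -0.23 and -0.20, were not called, and both turned positive with library size (0.41 and 0.44, the latter called). AXIN1 was called lower without primed rep2 (-0.54).

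Among the TCF/LEF factors, which carry β-catenin to its target genes, TCF7L2 and TCF7L1 were the most abundant per length in both states. In CPM per kb TCF7L2 stood at 9.27 in naïve and 19.5 in primed hESCs, and TCF7 at 0.811 and 0.613. TCF7L1, known mainly as a repressor in pluripotent cells, had 258 and 245 counts in naïve hESCs against 968 and 1359 in primed hESCs. The log2 fold change was 1.89 ± 0.17 (SE) with an adjusted p of 1.99e-13 in edgeR's quasi-likelihood test. The pseudogene SNRPEP11, inside the TCF7L1 span on the opposite strand, held 61% of its naïve and 12% of its primed counts. Outside the pseudogene there were 103 and 93 counts in naïve hESCs against 839 and 1209 in primed hESCs, and the log2 fold change became 3.07 (edgeR's quasi-likelihood adjusted p = 1.35e-18). TCF7L2 had 862 and 977 counts in naïve and 2097 and 2691 in primed hESCs, without overlap in counts or in CPM. It rose by 1.07 ± 0.15 (SE) on the log2 scale (adjusted p = 3.05e-08, edgeR's quasi-likelihood test), with 1.31 outside ENSG00000233547, an antisense lncRNA in its span, and 0.65 on a transcript whose span overlaps no other gene. TCF7 was not called, at -0.41. LEF1, an activating member of the family, had 3 and 2 counts in naïve and 8 and 13 in primed hESCs and did not pass the filter.

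Reads were counted over whole spans without strand, so a gene and another inside its span or antisense to it share counts, and 27 of the 47 spans overlapped another annotated gene. For 9 tested genes the gene inside the span held at least 10% of the counts in a state. Its share differed most between the states for TCF7L1 and SFRP4.

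**Figure D4:**
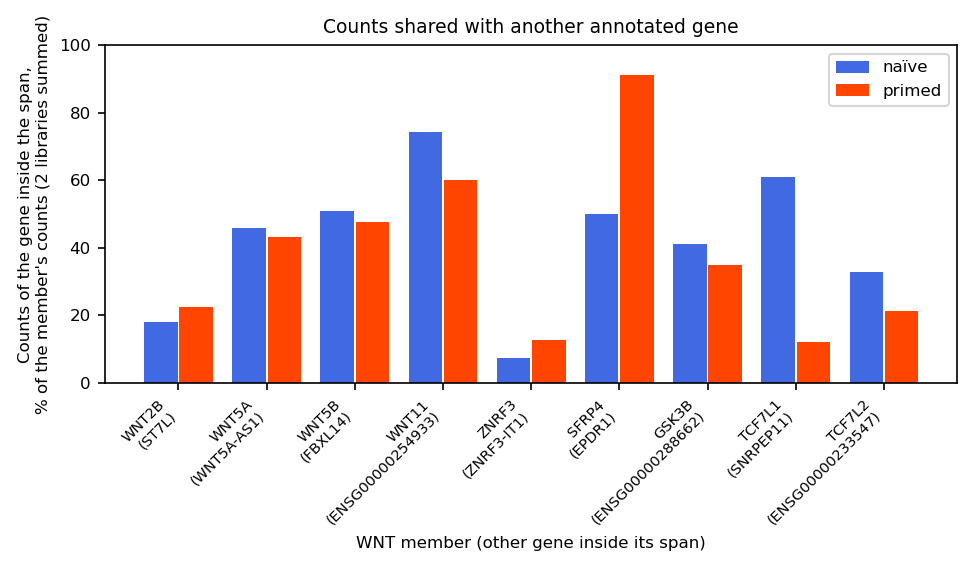
Counts of the other annotated gene inside the span as a percentage of the counts of the WNT gene, with 2 libraries summed per state, for the 9 tested genes where this reached 10% in a state (naïve in blue, primed in orange-red). SNRPEP11 held 61% of the naïve and 12% of the primed counts of TCF7L1, and EPDR1 held 50% and 91.2% of those of SFRP4.

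Isoform usage was tested for 337 isoforms of 25 of these genes, and 0 were called by edgeR's quasi-likelihood test of each isoform against the others of its gene (adjusted p under 0.05 and a change of isoform fraction, dIF, beyond 0.1), where 0.545% of all 159577 isoforms tested were called. At an unadjusted p under 0.05 there were 24, or 7.12%, against 9.72% of all isoforms. With library size 2 were called, TCF7L1-204 and TCF7L1-202. TCF7L1-204, a span over the 5′ part of the gene, had 26 counts in either naïve library against 220 and 329 counts in primed hESCs. Of the TCF7L1 level per length it made up 9.69% and 10.3% in naïve hESCs against 28.9% and 29.8% in primed hESCs. The adjusted p was 0.0581 under TMM and 0.0306 with library size in the same edgeR test. TCF7L1-202 went from 71.3% ± 0.451 to 42.7% ± 0.636, and SNRPEP11 lies inside its span as well. DKK3-202 passed the adjusted p only (4.29e-05, edgeR's quasi-likelihood test), with a dIF of -0.03.

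A further 100 genes of the pathway were taken as a list of other ligands, secretion factors, inhibitors, receptors, cytoplasmic, nuclear and polarity proteins and target genes. Of 84 tested, 31 were higher and 24 lower in primed hESCs, beside 37.4% and 32.6% of all genes, and the median log2 fold change was 0.18. With library size the split was 52 higher and 12 lower. Among 12 further inhibitors tested 7 were higher and 3 lower. CER1, a secreted antagonist of Nodal, BMP and WNT, had 0 counts in both naïve libraries but 158 and 139 in primed hESCs, and IGFBP4, which binds insulin-like growth factors and also Frizzled and LRP6, went from 4 and 5 to 368 and 548. SHISA2, which retains Frizzled receptors in the cell, had a log2 fold change of 4.25. KREMEN2, a Dickkopf receptor, fell from 131 and 149 to 41 and 57 counts. TRABD2A, a protease acting on WNT ligands, had a log2 fold change of -1.50, but TMSB10 inside its span held 99.9% and 99.6% of its counts. WLS, which carries WNT ligands to the cell surface as PORCN prepares them, had 788 and 973 counts in naïve and 76 and 86 in primed hESCs, a fall of 3.74 on the log2 scale (adjusted p = 4.79e-22, edgeR's quasi-likelihood test). The pseudogene CTBP2P8 inside the WLS span held 1.42% of its naïve and 35.2% of its primed counts. Of the 5 secretion genes 3 were lower and 1 was higher. ROR1, a receptor for WNT5A, rose from 30 and 30 counts to 1324 and 1883 (log2 fold change 5.42, adjusted p = 3.13e-25, edgeR's quasi-likelihood test), and of 11 polarity genes 5 were higher and 1 was lower. Of 9 target genes tested 5 were higher and 1 lower. Those with the largest changes were MSX2, a homeobox gene that BMP also controls and that fell from 1237 and 1555 counts to 16 and 20, and TCF4, a bHLH factor distinct from TCF7L2, which rose from 31 and 26 to 1090 and 1500. The casein kinase CSNK1D, one of the 22 cytoplasmic genes tested (6 higher, 6 lower), went from 831 and 897 counts to 297 and 374. All 10 genes named in this list had primed libraries that did not overlap the naïve ones, as did 84.4% of all genes tested. Because the 10 were chosen for large changes, this is no further support.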

How the data were processed

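Long-read cDNA of 2 naïve and 2 primed H1 hESC libraries was analysed from the raw counts that the authors deposited per transcript. Per the file headers these were made with featureCounts 2.0.0 (options -L, -O and -M) on an Ensembl annotation of GRCh38, after alignment with minimap2 according to the submitters' processing notes. A transcript was counted as 1 span with its introns and without regard to strand, and an alignment added to each span that it touched, so overlapping genes and isoforms share counts. No library was pooled, and replicates were distinct (chi-square per degree of freedom 13.4 and 7.95).

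Transcript identifiers were matched to GENCODE 44 for symbols and exonic lengths (242542 of 244825; the rest held 1.0% of counts and were left out), and 417 transcripts belonged to the 47 genes. Genes that reached 10 counts in 2 or more libraries were fitted with edgeR 4.0.16 in R 4.3.3 (TMM, glmQLFit, glmQLFTest with the state as the term, two-sided, Benjamini-Hochberg over all genes tested). Gene-level totals were 29618037 and 30978794 counts in naïve and 23542380 and 24673428 in primed hESCs, with TMM factors of 0.779, 0.824, 1.25 and 1.24. Isoform usage was tested with diffSpliceDGE. In simulated counts with these means and depths the gene test recovered 97% of 200 genes changed 4-fold and called 8 of 26188 unchanged ones, and the isoform test recovered 99% with 9 false calls of 152060. The simulated counts were independent of each other and had a fixed dispersion, whereas real isoforms and overlapping genes share counts. The changed genes and isoforms were drawn only from those above a minimum mean count. Some called WNT genes, such as WNT6 with a mean of 7.5 counts, lie below it. The simulation therefore gives neither the power nor the rate of false calls of the gene and isoform tests on these data.

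Members, gene lists and motifs were chosen with earlier results of these data known. Per-library values are given for genes called with an absolute log2 fold change of at least 1, a mean count of at least 50 and no overlap of the states, and for genes at 0 in both libraries of a state, with up to 5 others per role. Of the other pathway genes the 5 largest changes in each direction with a mean count of at least 50 were named. Single marker genes and the genes inside member spans were named after their values were seen. Alternatives were library size, DESeq2 1.42.0, the replicate number as a block, other filters, other gene values, a fold threshold, genes free of overlap and each library left out. Tables were handled with pandas 2.3.3 and figures with matplotlib 3.10.9 in Python 3.11.15.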

Additional observations from a re-analysis of the deposited data

How the results depend on the processing

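The calls of 16 higher and 12 lower WNT genes were recomputed under each alternative. With at least 50 counts required, 10 were higher, of 25 genes that could be tested. Over the 13 tested genes whose span overlaps no other gene there were 5 higher and 5 lower, and with a transcript free of overlap as the gene value, an alternative chosen after seeing the data, 10 of 25 were higher. Without each library in turn, 15 to 16 were higher and 10 to 13 lower. The other counts stayed within 1.5 times. For the 100 further pathway genes (31 higher, 24 lower), library size gave 52 and 12, genes free of overlap 13 and 7, and a log2 fold change of at least 1 left 13 lower. Leaving out libraries gave 26 to 31 higher and 18 to 23 lower. With library size the median of all genes shifted by 0.64, and with the stricter filters fewer genes were tested. The cause of the changed counts was not tested. Of the 36 log2 fold changes 7 changed sign under some alternative, with reported values between -0.47 and 0.01. Library size turned WNT5B to 0.46, LRP6 to 0.54, LGR4 to 0.16, AXIN1 to 0.41, GSK3A to 0.44 and TCF7 to 0.23. WNT10B became -0.033 with DESeq2 and -0.24 with summed transcripts, LRP6 0.0086 with the filter of 50 counts and LGR4 0.31 on a transcript free of overlap. Without each library in turn, WNT10B ranged from -0.20 to 0.21, LRP6 from -0.19 to 0.0025 and AXIN1 from -0.54 to 0.031. The cause of these sign changes was not tested. The sums by role with library size and the inhibitor median without SFRP4 were added after seeing the data. The values outside a gene that lies inside a span also belong to an alternative chosen after seeing the data, and they lost the call of WNT5A (-0.94). The 0 isoform calls became 2 with library size, and 1 each with identical isoforms collapsed, with no dIF threshold and with fractions without length, and as none was called no dIF was recomputed without a library. Without length the share of FZD3 was 8.67% in naïve and 26.5% in primed hESCs.

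With the replicate block, 16 WNT genes were higher and 12 lower, and 32 and 26 of the further pathway genes, and no call of a WNT gene changed. The labels do not say whether same-numbered libraries were paired. The deviations of same-numbered libraries had a correlation of 0.0715 over 27632 genes, which cannot exclude a shared batch. Depth limits the 11 genes that were not tested, where 3 counts is the limit for a count of 0. Some of them were called under alternatives. With summed transcripts DKK1, LGR5 (log2 fold change 3.59) and LEF1 (1.66) were called higher. Without a filter DKK1, SFRP5, LGR5 (3.40) and LEF1 (1.71) were called higher and WNT3A lower (-2.05). All of these rest on few counts.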
